A study of Mus musculus with 37 samples.

Results

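The TMEM106 family and the progranulin partners were followed as 6 genes, Tmem106a, Tmem106b, Tmem106c, Grn, Psap and Sort1. They were taken by symbol from the 55536 genes of a liver and a cortex table of read counts, and each symbol matched 1 Ensembl identifier in GENCODE M21. RNA-seq was run on total RNA from liver and brain cortex of 10-month-old mice, to ask what a lack of TMEM106B and the TDP-43 Q331K mutation change in the 2 tissues. The 4 genotypes were TMEM106B-/- TDP-43Q331K (called the combined genotype here; 4 livers, 5 cortices), TMEM106B-/- (4 livers, 5 cortices), TDP-43Q331K, a knock-in of the mutation (4 livers, 6 cortices), and WT (4 livers, 5 cortices). The labels give no sex and do not describe the TMEM106B allele, nor whether Q331K mice carried 1 or 2 copies. Nor do they tie each library to an animal of its own, so the tests rest on the spread among these libraries, part of which may be technical.

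TMEM106B is a transmembrane glycoprotein of late endosomes and lysosomes, and TMEM106A and TMEM106C are its paralogues. Variants of human TMEM106B modify the risk of frontotemporal degeneration, most clearly in carriers of mutations of GRN, which encodes progranulin. Progranulin is secreted, or carried to the lysosome by the sorting receptor sortilin (Sort1) or together with prosaposin (Psap), and is there cut into granulins. Prosaposin is the precursor of the saposins, small activators of sphingolipid hydrolases. Sortilin also handles lipoproteins and other cargo in hepatocytes.

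The promoter windows of the TMEM106 genes and of Grn are shown to place these genes and to let their starts be compared. They are RefSeq sequences of GRCm38.p6, all on the plus strand, from 250 bases before to 50 bases after the RefSeq start, with GC boxes (GGGCGG) in capitals. The windows lie at chr11:101581992-101582291 for Tmem106a, chr6:13069509-13069808 for Tmem106b, chr15:97963979-97964278 for Tmem106c and chr11:102430257-102430556 for Grn.
Tmem106a: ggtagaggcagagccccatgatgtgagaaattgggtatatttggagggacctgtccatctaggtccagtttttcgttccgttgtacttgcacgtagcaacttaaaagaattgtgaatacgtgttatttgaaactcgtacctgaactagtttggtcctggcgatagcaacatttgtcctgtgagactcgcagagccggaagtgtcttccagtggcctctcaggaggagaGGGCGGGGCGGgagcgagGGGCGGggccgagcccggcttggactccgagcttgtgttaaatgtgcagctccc
Tmem106b: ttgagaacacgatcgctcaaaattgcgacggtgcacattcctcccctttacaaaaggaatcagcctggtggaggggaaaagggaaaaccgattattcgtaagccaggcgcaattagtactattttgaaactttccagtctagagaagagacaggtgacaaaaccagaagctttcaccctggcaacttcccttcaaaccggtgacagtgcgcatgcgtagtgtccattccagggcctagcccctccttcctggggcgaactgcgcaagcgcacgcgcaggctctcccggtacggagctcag
Tmem106c: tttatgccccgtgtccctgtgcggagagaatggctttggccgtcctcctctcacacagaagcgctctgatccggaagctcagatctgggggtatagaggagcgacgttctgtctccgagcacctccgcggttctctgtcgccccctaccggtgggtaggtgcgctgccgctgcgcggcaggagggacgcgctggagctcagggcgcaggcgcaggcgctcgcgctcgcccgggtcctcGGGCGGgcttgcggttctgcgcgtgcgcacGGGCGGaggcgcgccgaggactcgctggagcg
Grn: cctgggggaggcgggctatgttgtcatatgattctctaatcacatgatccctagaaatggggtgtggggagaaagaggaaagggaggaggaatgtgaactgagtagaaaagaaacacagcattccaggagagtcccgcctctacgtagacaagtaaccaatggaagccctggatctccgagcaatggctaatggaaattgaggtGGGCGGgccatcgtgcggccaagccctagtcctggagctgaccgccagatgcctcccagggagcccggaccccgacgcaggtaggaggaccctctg
Searched on both strands, the GC box occurred 3 times in the window of Tmem106a (the first 2 matches overlap), 2 times in that of Tmem106c, 1 time each in those of Grn and Psap, and not in that of Tmem106b. Of 32851 windows of this length, 35.7% held it. The E-box CACGTG, found in 7.15% of windows, and its longer form TCACGTGA, found in 0.974%, had no match in the windows of these 5 genes. GC content was 69.7% in the Tmem106c window, 62.0% in the Psap window and 53.0% to 56.3% in the other 3. RefSeq lists a second start for 2 genes, whose windows are not shown: that of Tmem106a holds the same 3 GC boxes (54.7% GC), and that of Psap, at chr10:60284211-60284510, holds none (43.3% GC). No window was read for Sort1, for which the promoter set used here held no entry.

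In GRCm38, GENCODE M21 places Tmem106a (ENSMUSG00000034947) at chr11:101582242-101591788, Tmem106b (ENSMUSG00000029571) at chr6:13069759-13089269, Tmem106c (ENSMUSG00000052369) at chr15:97964200-97970275, Grn (ENSMUSG00000034708) at chr11:102430315-102437048, Psap (ENSMUSG00000004207) at chr10:60277627-60302597 and Sort1 (ENSMUSG00000068747) at chr3:108284082-108361511. All 6 are protein-coding genes on the plus strand. No run of 50 bases was shared between transcripts of these 6 genes. Exons of Grn overlap those of Fam171a2 on the opposite strand over 68 bases (1.957% of Grn's exon bases), and exons of Sort1 overlap the antisense gene Gm12523 over 338 bases (4.466%). The library kit keeps strand, but the strand setting of the counting is not given in the sources used here, so reads from these stretches cannot be assigned with certainty. Gm12523 averaged at most 0.125 CPM in any group of either tissue. Fam171a2 averaged 1.31 to 1.64 CPM over the liver groups. In the cortex groups it averaged 59.8 to 66.3 CPM, above the 34.6 to 40.2 CPM of Grn.

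Libraries held 50.5 to 74.1 M counted reads in liver and 28.8 to 46.3 M in cortex, where counts were normalised to counts-per-million values (CPM) with edgeR's TMM factors within each tissue. Tissue identity was as labelled: 5 hepatocyte marker genes summed to 82056 to 120428 CPM in livers and at most 2.45 CPM in cortices, and 5 neuron marker genes to 5440.1 to 6603 CPM in cortices and at most 11.5 CPM in livers. A gene was called at an adjusted p under 0.05 in edgeR's quasi-likelihood test, with Benjamini-Hochberg adjustment over all 16710 genes tested in liver or 21248 in cortex. All adjusted p-values below come from that test unless another tool is named, and ± after a log2 fold change is its standard error. Some livers (WT replicate 2, TMEM106B-/- replicate 4, combined replicate 1) had been set apart for high acute phase transcripts, and some cortices (WT 1, TDP-43Q331K 3, TMEM106B-/- 5, combined 2) for extreme marker levels, so calls of the 6 genes are also given without these libraries. Bulk RNA cannot tell fewer cells of a type from less of an RNA per cell.

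Tmem106b RNA, the transcript of the targeted gene, was not lower in the libraries labelled TMEM106B-/-. In liver it had 122, 139, 143 and 136 CPM in the combined genotype and 114, 129, 112 and 107 CPM in TMEM106B-/-. In TDP-43Q331K livers it had 113, 102, 63.6 and 89.3 CPM, and in WT livers 113, 107, 87.5 and 78.5 CPM. All 4 combined livers lay above all 8 livers with TMEM106B, while TMEM106B-/- alone overlapped WT. In cortex, combined libraries had 204, 201, 216, 201 and 179 CPM and TMEM106B-/- libraries 181, 177, 187, 182 and 194 CPM. TDP-43Q331K cortices had a lowest value of 171, a median of 182 and a highest of 190.3 CPM, and WT cortices had 189, 183, 183.5, 192 and 193 CPM. These cortex ranges overlapped throughout. The counts are totals per gene, and the altered part of the allele is not described in the sources used here. The level therefore does not check the genotype labels, on which every direction below rests.

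**Figure D1:**
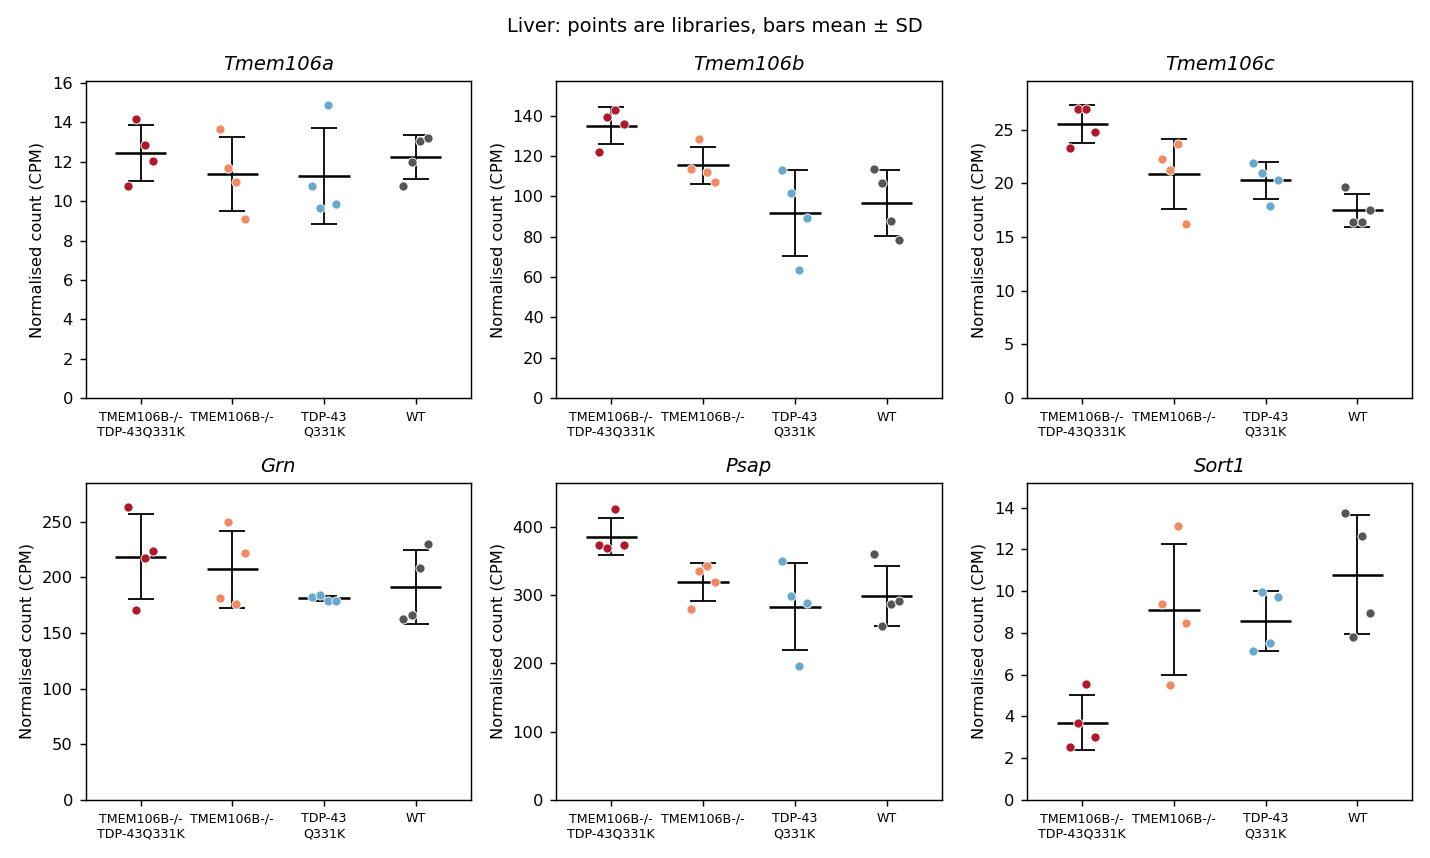
Normalised read counts (CPM) of the 6 genes in liver, by genotype, with each point a library, horizontal lines the means and bars the SD (n = 4 each). Sort1 is lowest in the combined genotype, at 2.54 to 5.55 CPM, and Tmem106c is highest there, at 23.3 to 27.0 CPM against 16.4 to 19.6 CPM in WT.

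**Figure D2:**
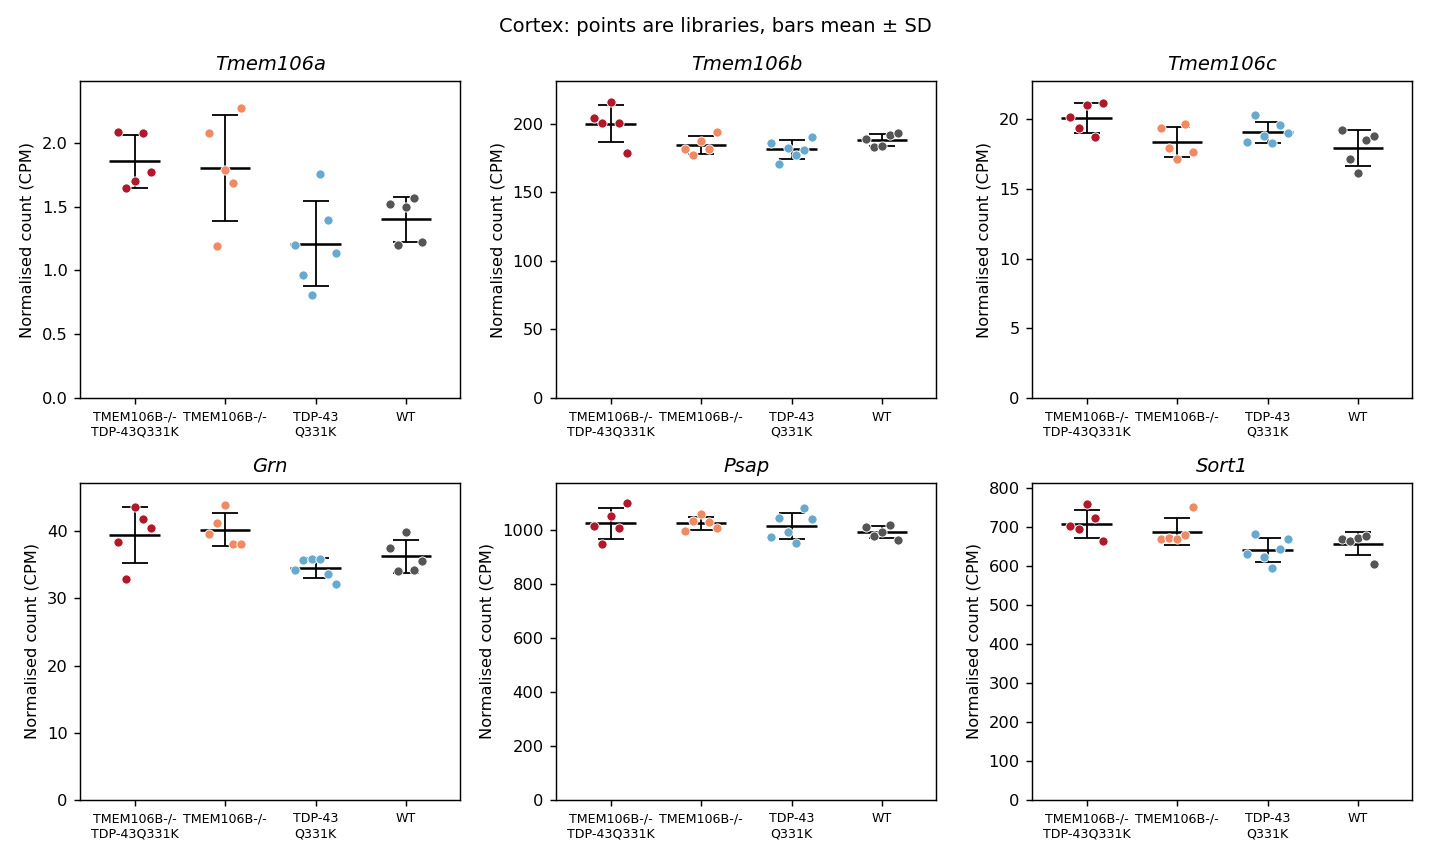
The same plot for cortex, with each point a library, lines the means and bars the SD (n = 5, 5, 6 and 5 from left to right). The ranges overlap between most genotypes, and Tmem106a stays between 0.808 and 2.27 CPM in all 21 libraries.

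Levels were compared between genes per length, as RPKM, the CPM divided by exon length in kilobases. In WT liver Psap was highest at 108.9 ± 16.1 RPKM (SD, n = 4), followed by Grn at 55.2 ± 9.55, Tmem106b at 13.9 ± 2.35, Tmem106c at 7.18 ± 0.629, Tmem106a at 3.90 ± 0.357 and Sort1 at 1.43 ± 0.378. In WT cortex Psap was also highest at 361.6 ± 8.39 RPKM (SD, n = 5), but Sort1 was next at 86.8 ± 3.88, then Tmem106b at 27.1 ± 0.677, Grn at 10.4 ± 0.702, Tmem106c at 7.37 ± 0.528 and Tmem106a at 0.447 ± 0.0561. Sort1 thus stood at rank 6 of 6 in liver and at rank 2 in cortex, and Grn at rank 2 in liver and rank 4 in cortex. Each tissue kept its order in all 4 genotypes, and no neighbours in the order overlapped in any group. The combined livers had 140.6 ± 10.0 RPKM of Psap, 62.9 ± 11.03 of Grn, 19.5 ± 1.32 of Tmem106b, 10.5 ± 0.733 of Tmem106c, 3.97 ± 0.454 of Tmem106a and 0.488 ± 0.175 of Sort1.

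**Figure D3:**
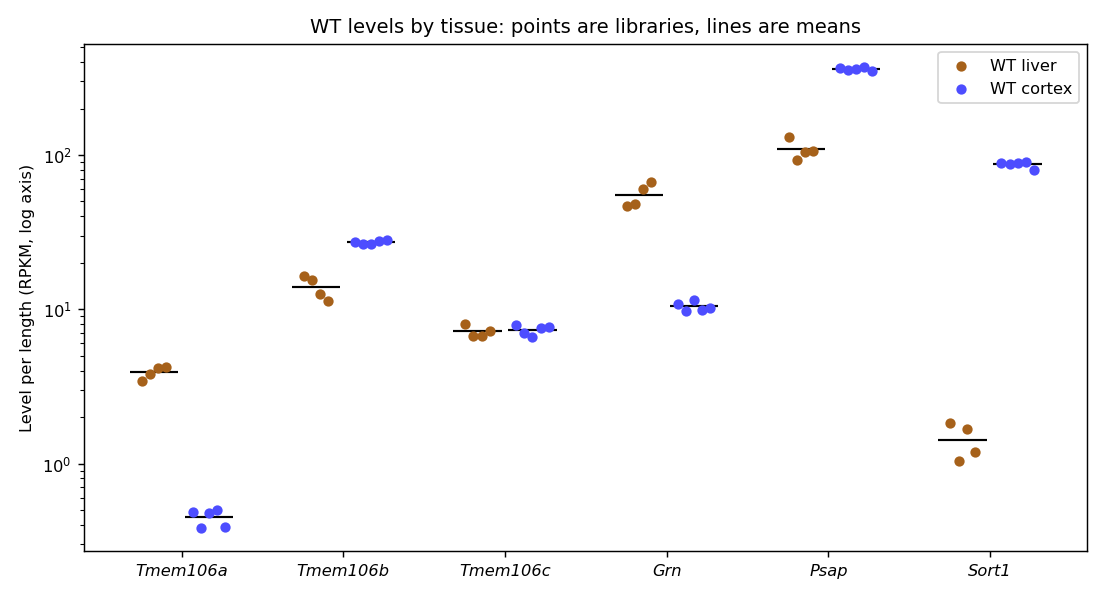
Level per length (RPKM, log axis) of the 6 genes in WT liver and WT cortex, with each point a library and each line a mean (n = 4 and 5), each tissue normalised on its own. Sort1 and Tmem106a stand farthest apart between tissues, in opposite directions, and the points of Tmem106c lie at similar heights in both.

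The levels in WT liver were set against WT cortex in 1 fit over all 37 libraries and 23384 genes, in which 90.9% of genes were called (37.7% higher and 53.2% lower), so a call is close to the rule here and the sizes carry the description. Tmem106a was 20.0-fold higher in liver (log2 4.32 ± 0.17, adjusted p = 1.76e-23) and Grn 12.2-fold higher (3.61 ± 0.12, adjusted p = 1.15e-25). Sort1 was 26.5-fold lower in liver (-4.73 ± 0.21, adjusted p = 8.63e-22) and Psap 1.45-fold lower (-0.53 ± 0.11, adjusted p = 3.79e-05). These directions were the same under every scaling tried, but the sizes were not, since the median of all genes was -0.73 with TMM factors and -1.92 with library totals alone. On the log2 scale, library totals alone gave 3.13 for Tmem106a, 2.40 for Grn, -5.92 for Sort1 and -1.74 for Psap. Without the libraries set apart these differences were 4.39, 3.70, -4.58 and -0.44, all called. The other 2 paralogues changed sign with the scaling. Tmem106c was 2.24-fold higher in liver (1.16 ± 0.09, adjusted p = 5.55e-15) with TMM factors and at -0.04 (adjusted p = 0.616) with library totals alone, and at 1.24 without the libraries set apart. Tmem106b was at 0.23 ± 0.10 (adjusted p = 0.0344) with TMM factors, at 0.01 (adjusted p = 0.948) with RLE factors and at -0.97 (adjusted p = 1.79e-11) with library totals alone. The Tmem106b call was held in 6 of 16 settings, lost in 9 and reversed in 1. Beside RLE factors and DESeq2 (0.949), it was lost with no low count filter (0.146), with the replicate block (0.0515), without the libraries set apart (0.124), and without WT liver 1 (0.204) or 2 (0.0942) or WT cortex 2 (0.0593) or 3 (0.0585). Tissue and table cannot be told apart in this comparison, since each tissue was deposited as a table of its own.

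In liver, the combined genotype differed from WT in 2 of the 6 genes, 1 higher and 1 lower, where 7.04% of all genes were called (4.19% higher and 2.85% lower). Sort1 was 2.92-fold lower and Tmem106c 1.46-fold higher. None of the 6 genes was called in TMEM106B-/- or TDP-43Q331K livers against WT, where 1.05% and 0.263% of all genes were called (0.688% and 0.156% higher, 0.365% and 0.108% lower). In simulated liver counts, 25% of 1.5-fold changes were recovered for the combined genotype against WT, so changes of that size can go uncalled. The single genotypes against WT were not simulated. With both TMEM106B-/- groups averaged against both groups with TMEM106B, 62% were recovered, and 7.69% of calls were false in a single simulated set. Combined livers were also set against TDP-43Q331K livers, with Tmem106b called higher and Sort1 lower (3.94% of all genes called, 2.17% higher and 1.77% lower), and against TMEM106B-/- livers, with Sort1 called lower (1.04%, of which 0.485% higher and 0.551% lower). These comparisons share groups, the combined livers being part of all 3, so they are not independent.

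Tmem106c, a paralogue whose function is little described, had 23.3, 26.9, 27.0 and 24.8 CPM in combined livers and 22.2, 21.2, 23.7 and 16.2 CPM in TMEM106B-/- livers. It had 21.9, 20.97, 17.9 and 20.3 CPM in TDP-43Q331K livers and 19.6, 16.4, 16.4 and 17.5 CPM in WT livers. Every combined liver lay above every WT and every TDP-43Q331K liver, while TMEM106B-/- livers overlapped both the combined and the WT livers and TDP-43Q331K livers overlapped WT. The combined genotype was 0.54 ± 0.12 above WT on the log2 scale (adjusted p = 0.00888, higher in 4 of 4 livers), with adjusted p between 0.000543 and 0.0314 over the 15 alternative settings. Against TDP-43Q331K livers the difference was 0.33 ± 0.12 (adjusted p = 0.112), and the interaction of the 2 alleles was 0.08 ± 0.16 (adjusted p = 0.854). With both TMEM106B-/- groups averaged against both groups with TMEM106B, it stood at 0.29 ± 0.08 (adjusted p = 0.0527), just above the threshold, and passed it with DESeq2 (adjusted p = 0.0206), with limma-voom (0.00644), and without TMEM106B-/- replicate 4 (0.00789) or WT replicate 1 (0.0384). Without the livers set apart the combined minus WT difference was 0.56 (adjusted p = 0.00819) and the average 0.35 (0.0139).

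Tmem106b differed from TDP-43Q331K livers by 0.56 ± 0.15 in the combined genotype (1.47-fold higher, adjusted p = 0.0497, 4 of 4 livers). That call was lost in 9 of 15 alternative settings, which were the fit to the compared groups alone (adjusted p = 0.0631), the fit without the livers set apart (0.0551), and the fits without any 1 of the 4 combined livers or without TDP-43Q331K replicate 2, 3 or 4 (0.0650 to 0.126). Against WT the difference of the combined genotype was 0.48 ± 0.15 (adjusted p = 0.0625; range over the settings 0.00838 to 0.155). Averaged over both TDP-43 backgrounds, the libraries labelled TMEM106B-/- were 1.32-fold higher (0.41 ± 0.11, adjusted p = 0.0414, 8 of 8 livers above the mean of the others), where 4.18% of all genes were called (2.53% higher and 1.66% lower). That average was lost in 10 of 22 settings, when TMEM106B-/- replicate 1, 2 or 3, combined replicate 2, 3 or 4, TDP-43Q331K replicate 2 or 4, or WT replicate 3 or 4 was left out (adjusted p of 0.0506 to 0.0829). Without the livers set apart it was 0.47 (adjusted p = 0.0425). TMEM106B-/- alone differed from WT by 0.26 ± 0.15 (adjusted p = 0.448), with a 95% interval of -0.06 to 0.58.

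Tmem106a, a paralogue studied mainly in macrophages, ranged over 9.11 to 14.9 CPM in all 16 livers and was called in no liver comparison. It averaged 12.5 ± 1.42 CPM in combined livers, 11.4 ± 1.89 in TMEM106B-/- livers, 11.3 ± 2.45 in TDP-43Q331K livers and 12.2 ± 1.12 in WT livers (SD, n = 4 each). The largest of its liver differences was the interaction, at 0.25 ± 0.21 (adjusted p = 0.593).

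Grn and Psap, which encode the 2 lysosomal cargo proteins, were not called in liver. Grn averaged 218.7 ± 38.3 CPM in combined livers, 207.2 ± 34.7 in TMEM106B-/- livers, 181.1 ± 2.51 in TDP-43Q331K livers and 191.7 ± 33.2 in WT livers (SD, n = 4 each), with all groups overlapping WT. Psap had 373, 369, 427 and 374 CPM in combined livers, against 360.2, 255, 287 and 292 CPM in WT livers. All 4 combined livers lay above the other 12, which ranged from 196 to 360.2 CPM. The difference from WT was 0.37 ± 0.15 (adjusted p = 0.145) and from TDP-43Q331K 0.45 ± 0.15 (adjusted p = 0.1004), so neither passed the test.

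Sort1, the sortilin gene, had the largest change of the 6. Combined livers had 2.54, 3.68, 5.55 and 3.003 CPM (164 to 356 reads) and TMEM106B-/- livers 9.40, 5.48, 13.1 and 8.45 CPM. TDP-43Q331K livers had 7.12, 9.94, 7.54 and 9.71 CPM, and WT livers 13.8, 7.83, 12.7 and 8.94 CPM. The combined livers were below every WT and TDP-43Q331K liver, and only their highest overlapped the lowest TMEM106B-/- liver. Against WT, the combined genotype fell by 1.55 on the log2 scale (± 0.27, adjusted p = 0.00272, lower in 4 of 4 livers), with adjusted p between 2.15e-06 and 0.0111 over 15 settings. Without the livers set apart the difference was -1.53 (adjusted p = 0.00977).

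Against TDP-43Q331K livers, Sort1 was 2.32-fold lower in the combined genotype (-1.21 ± 0.27, adjusted p = 0.0190). That call was lost without combined replicate 1 (adjusted p = 0.0608) or 2 (0.0630), and without TDP-43Q331K replicate 2 (0.0503) or 4 (0.0599). Without the livers set apart it was -1.07 (adjusted p = 0.0485). Against TMEM106B-/- livers it was 2.47-fold lower (-1.30 ± 0.27, adjusted p = 0.0291). That call was lost in 7 of 15 settings, which were the fit to the compared groups alone (0.102), the fit without the livers set apart (0.0801), and fits without TMEM106B-/- replicate 1 (0.0731) or 3 (0.0699) or combined replicate 1 (0.0847), 2 (0.0968) or 4 (0.0796). The sizes of both differences kept their direction throughout. TMEM106B-/- alone was at -0.25 ± 0.27 against WT (adjusted p = 0.708) and TDP-43Q331K alone at -0.33 ± 0.27 (adjusted p = 0.589). The interaction, which asks whether the combined difference exceeds the sum of both, was -0.97 ± 0.38 with an adjusted p of 0.218 (0.688% of all genes called, 0.341% higher and 0.347% lower, and none of the 6).

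Averaged over TDP-43 backgrounds, Sort1 was 1.66-fold lower in livers labelled TMEM106B-/- (-0.73 ± 0.19, adjusted p = 0.0388, below the mean of the others in 7 of 8 livers). It was lost in 13 of 22 settings. These were no filter on low counts (adjusted p = 0.0639), the fit without the livers set apart (0.0645), and fits without TMEM106B-/- replicate 1, 2 or 4, combined replicate 1, 2 or 4, TDP-43Q331K replicate 2, 3 or 4, or WT replicate 1 or 3 (0.0528 to 0.0810). For Q331K averaged over TMEM106B backgrounds Sort1 stood at -0.82 ± 0.19 (adjusted p = 0.0675, below the mean in 8 of 8 livers), where 0.545% of all genes (0.311% higher and 0.233% lower) and none of the 6 were called. DESeq2 gave 0.00372 and limma-voom 0.0374 for that average, and edgeR gave 0.0257 without TMEM106B-/- replicate 2 and 0.0265 without combined replicate 3. The combined livers belong to the lower side of both averages, and neither single genotype was called against WT by itself. Hepatocyte markers, whose sums overlapped between all genotypes (82056 to 112148 CPM in combined livers and 91824 to 111362 CPM in WT livers), had 2 of 5 genes called lower in the combined genotype, and Kupffer cell markers 0 called. Their part in the Sort1 difference was not tested.

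**Figure D4:**
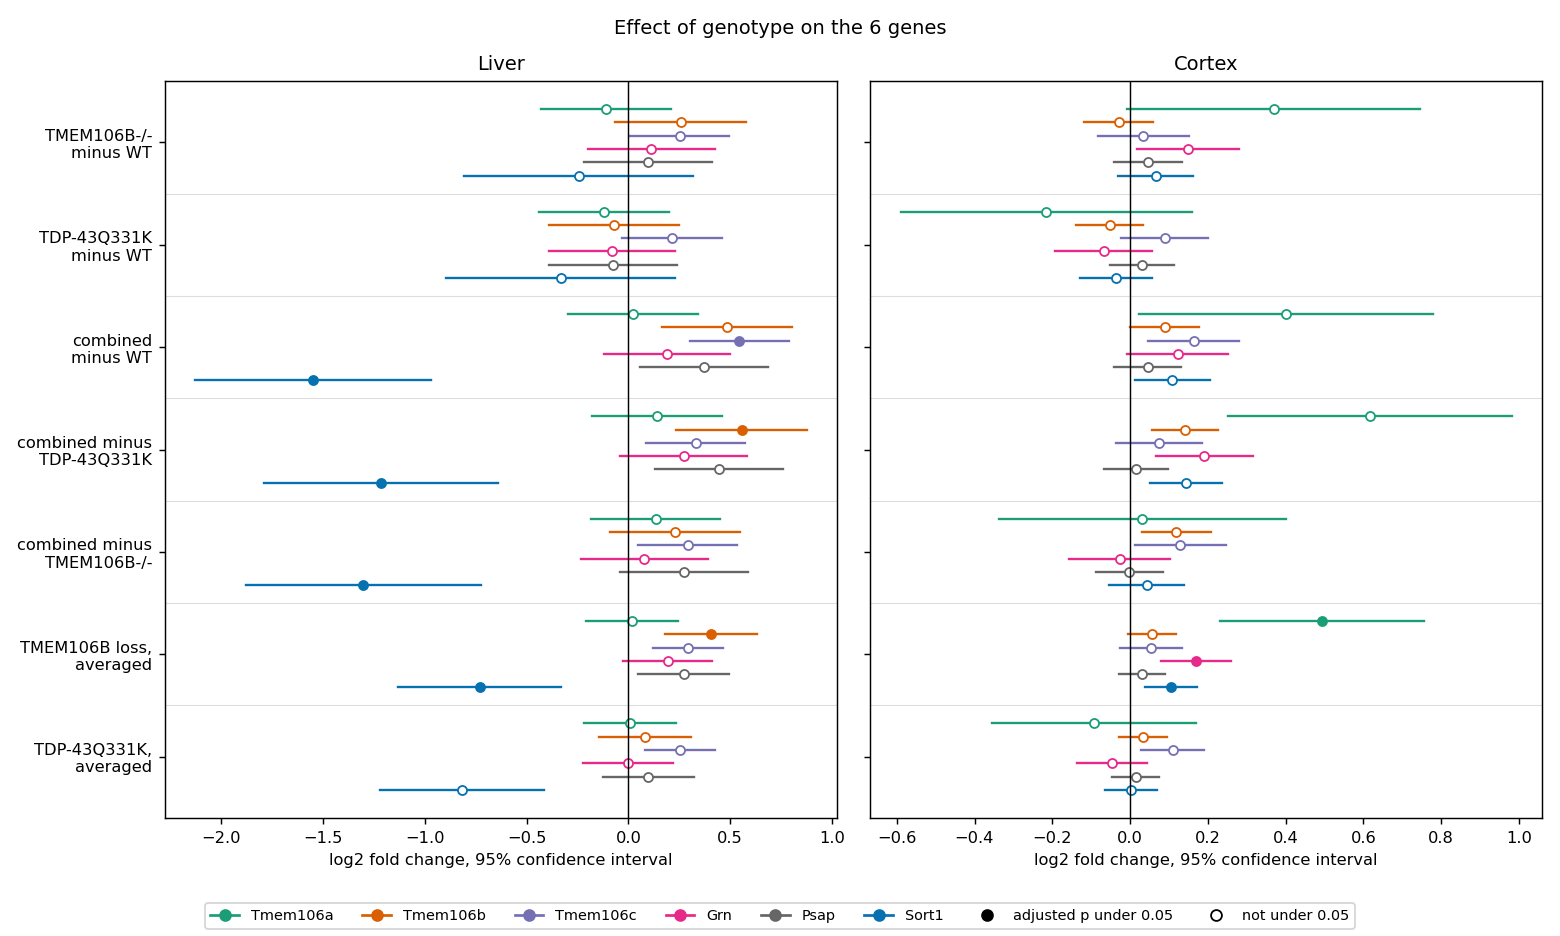
Log2 fold changes of the 6 genes with 95% confidence intervals, for 5 pairwise comparisons and 2 averages in liver (left) and cortex (right), filled where the adjusted p was under 0.05. The axes differ in scale, with liver Sort1 reaching -1.55 while every cortex value lies between -0.22 and 0.62.

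In cortex, none of the 6 genes was called in any pairwise comparison. The share of all genes called was 5.16% for TMEM106B-/- against WT (2.78% higher and 2.39% lower), 4.89% for the combined genotype against WT (2.53% higher and 2.36% lower) and 1.4% for the combined genotype against TDP-43Q331K (0.8% higher and 0.602% lower). No gene at all passed for TDP-43Q331K against WT (1036 at an unadjusted p under 0.05; 10 by DESeq2, 10 by limma-voom), for the combined genotype against TMEM106B-/- (1053; 0 by either), for the interaction (972; 0 by either) or for Q331K averaged over TMEM106B backgrounds (1120; 5 by DESeq2, 0 by limma-voom), so 0% was called in each. With 10 cortices labelled TMEM106B-/- averaged against 11 with TMEM106B, 13.7% of all genes were called (7.7% higher and 5.96% lower), and Tmem106a, Grn and Sort1 of the 6 were called higher.

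Tmem106a, at 28 to 105 reads a library the sparsest of the 6 in cortex, had 2.08, 1.65, 1.70, 2.08 and 1.77 CPM in combined cortices and 2.08, 1.19, 1.79, 1.68 and 2.27 CPM in TMEM106B-/- cortices. TDP-43Q331K cortices had a lowest value of 0.808, a median of 1.17 and a highest of 1.76 CPM, and WT cortices had 1.52, 1.201, 1.498, 1.57 and 1.22 CPM. All 5 combined cortices were above all 5 WT cortices, and 1 TMEM106B-/- cortex lay below the lowest WT value. The combined minus WT difference was 0.40 ± 0.18 (adjusted p = 0.204) and was not called. How many of all genes separate these groups in the same way was not counted. The average over TDP-43 backgrounds was 0.49 ± 0.13 (1.41-fold higher, adjusted p = 0.0115, 9 of 10 cortices), and adjusted p ranged from 0.00327 to 0.0406 over 27 settings. Without the cortices set apart it was 0.43 (adjusted p = 0.0406). The difference of the combined genotype from TDP-43Q331K was 0.62 ± 0.18 (adjusted p = 0.0715).

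Grn had 38.4, 32.9, 43.6, 41.9 and 40.5 CPM in combined cortices and 39.7, 41.3, 44.0, 38.1 and 38.1 CPM in TMEM106B-/- cortices. It had a lowest value of 32.2, a median of 35.0 and a highest of 35.9 CPM in TDP-43Q331K cortices, and 37.6, 34.0, 39.8, 34.3 and 35.6 CPM in WT cortices. Each genotype overlapped WT, with differences of 0.15 ± 0.06 in TMEM106B-/- (adjusted p = 0.192) and 0.12 ± 0.06 in the combined genotype (adjusted p = 0.265). All 5 TMEM106B-/- cortices were above all 6 TDP-43Q331K cortices. Those groups differ in both alleles and were not tested against each other, and how many of all genes separate them was not counted. The average was 0.17 ± 0.04 (1.12-fold higher, adjusted p = 0.0115, 9 of 10 cortices), and adjusted p ranged from 0.00132 to 0.0281 over 27 settings. Without the cortices set apart it was 0.22 (adjusted p = 0.00218). Fam171a2, whose exons overlap those of Grn on the opposite strand, stood at -0.06 in the same average (adjusted p = 0.373).

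Sort1 had 701, 694, 759, 724 and 663 CPM in combined cortices and 668, 672, 669.5, 678 and 751 CPM in TMEM106B-/- cortices. It had a lowest value of 595, a median of 637 and a highest of 682 CPM in TDP-43Q331K cortices, and 667, 665, 670.5, 677 and 605 CPM in WT cortices. The groups overlapped, and the average was 0.11 ± 0.03 (1.08-fold higher, adjusted p = 0.0309, 10 of 10 cortices above the mean of the others). It was lost in 10 of 27 settings. These were the fit with the replicate number as a block (adjusted p = 0.0503), the fit without the cortices set apart (0.1002), and fits without TMEM106B-/- replicate 5, combined replicate 3 or 4, TDP-43Q331K replicate 3, 4 or 5, or WT replicate 2 or 5 (0.0512 to 0.0737).

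The other 3 genes were not called in cortex. Tmem106b was at 0.06 ± 0.03 in the same average (adjusted p = 0.220), and at 0.14 ± 0.04 in the combined genotype against TDP-43Q331K (adjusted p = 0.0751). Tmem106c averaged 20.1 ± 1.07 CPM in combined, 18.4 ± 1.09 in TMEM106B-/-, 19.1 ± 0.756 in TDP-43Q331K and 17.9 ± 1.29 in WT cortices (SD, n = 5, 5, 6 and 5), with a combined minus WT difference of 0.16 ± 0.06 (adjusted p = 0.0921). Psap ranged over 945 to 1100.05 CPM in all 21 cortices and stood at 0.03 ± 0.03 in the average (adjusted p = 0.532).

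Markers of other cells moved with the same average in cortex. The oligodendrocyte markers Mbp (-0.97, adjusted p = 0.000200), Mog (-1.06, adjusted p = 0.000147), Mag (-0.84, adjusted p = 0.000141) and Cnp (-0.79, adjusted p = 0.000271), which encode myelin proteins, were called lower on the log2 scale. All 4 meningeal markers were called higher, with sums of 21.5 to 42.7 CPM in combined, 16.2 to 52.9 in TMEM106B-/-, 11.9 to 29.2 in TDP-43Q331K and 7.33 to 20.3 in WT cortices. Of 6 microglial markers 2 were called higher, with sums of 198 to 219 CPM in combined, 207 to 220.5 in TMEM106B-/-, 191 to 207 in TDP-43Q331K and 190.1 to 218 in WT cortices, and 3 of 5 astrocyte and 2 of 4 brain endothelial markers were called higher. Of 4 striatal markers 2 were called lower, with sums of 57.9 to 70.99 CPM in combined, 46.3 to 71.1 in TMEM106B-/-, 66.7 to 162 in TDP-43Q331K and 77.1 to 91.1 in WT cortices. Red blood cell markers had 2 of 5 called lower, oligodendrocyte precursor markers 1 of 4 called lower, and neuron markers 0 of 5 called. Their part in the differences of Tmem106a, Grn and Sort1 was not tested.

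The effect of TMEM106B loss differed between tissues for 2 of the 6 genes when that difference itself was tested in the joint fit, in which 6.18% of all genes were called (3.26% higher and 2.92% lower). For Sort1 the liver effect minus the cortex effect was -0.82 ± 0.18 (adjusted p = 0.00312), the liver average being lower and the cortex average higher. For Tmem106b it was 0.36 ± 0.10 (adjusted p = 0.0253). Both calls held in all 44 alternative settings, with -0.79 for Sort1 (adjusted p = 0.0101) and 0.42 for Tmem106b (0.0391) when the libraries set apart in both tissues were left out. The joint fit gives each gene 1 spread for both tissues. Fitted alone, liver had a larger common coefficient of variation (0.235) than cortex (0.103), so these ± and adjusted p may be too small. The labels do not say whether livers and cortices came from the same mice, so such pairing was not modelled. Tmem106a (-0.47 ± 0.16, adjusted p = 0.0795), Tmem106c (0.25 ± 0.09, adjusted p = 0.0756), Psap (0.25 ± 0.11, adjusted p = 0.173) and Grn (0.03 ± 0.11) did not pass. The Q331K effect differed between tissues for Sort1 alone of the 6, at -0.83 ± 0.18 (adjusted p = 0.0160, held in all 44 settings, and -0.87 with an adjusted p of 0.0196 without the libraries set apart), where 0.624% of all genes were called (0.287% higher and 0.338% lower). The same combined livers enter both Sort1 differences, so these are not independent. TDP-43Q331K alone against WT was at -0.33 ± 0.27 in liver (adjusted p = 0.589) and -0.04 ± 0.04 in cortex, and the liver Q331K average was not called (adjusted p = 0.0675).

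A wider list of 44 genes of the same pathway covered progranulin-cutting enzymes and inhibitors, sorting receptors and carriers, saposin-assisted enzymes and prosaposin receptors, reported TMEM106B binding partners, and reported progranulin receptors. Of these, 38 were tested in liver and 42 in cortex. In liver, 1 of 38 was called higher and 0 lower in the combined genotype against WT, beside 4.19% higher and 2.85% lower over all genes, so the count is no higher than the background. The median of the list was 0.21 beside -0.029 over all genes tested, and without the livers set apart 4 of the list were called. That gene was Lrpap1, which encodes the chaperone of LDL receptor family proteins. It had 62.0, 85.1, 74.7 and 57.9 CPM in combined and 49.3, 57.0, 57.6 and 58.7 CPM in TMEM106B-/- livers. TDP-43Q331K livers had 50.5, 53.1, 47.0 and 52.3 CPM of it, and WT livers 47.3, 44.5, 44.8 and 48.2 CPM. The combined and TMEM106B-/- livers were all above the WT livers, and the combined difference from WT was 0.60 ± 0.11 (adjusted p = 0.00339).

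Against TDP-43Q331K, 4 of 38 were called higher in combined livers and 0 lower, beside 2.17% higher and 1.77% lower over all genes. They were Lrpap1 (0.46 ± 0.11, adjusted p = 0.0256), Hexa (0.56 ± 0.13, adjusted p = 0.0226), which encodes a subunit of the ganglioside-cutting beta-hexosaminidase, and the lysosomal proteases Ctsd (0.45 ± 0.11, adjusted p = 0.0310) and Ctsb (0.41 ± 0.11, adjusted p = 0.0420). The count of 4 was lower in every fit with a single liver left out and with no low count filter, and higher with limma-voom. Averaged over TDP-43 backgrounds only Lrpap1 of the 38 passed (0.37 ± 0.08, adjusted p = 0.0125), where 4.18% of all genes were called, and 3 of the list passed without the livers set apart. In the other 5 liver comparisons 0 of 38 were called.

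In cortex, 5 of 42 were called higher and 5 lower in the TMEM106B loss average, beside 7.7% higher and 5.96% lower over all genes, and the median of the list was 0.023 beside 0.0032 over all genes. Gpr37, which encodes a receptor reported to bind prosaposin and is expressed in oligodendrocytes, had the largest fall, at -0.66 ± 0.10 (adjusted p = 0.000191). It had 43.4, 31.7, 30.8, 38.6 and 49.95 CPM in combined cortices and 29.6, 42.1, 35.4, 33.7 and 28.9 CPM in TMEM106B-/- cortices. WT cortices had 61.9, 66.5, 60.5, 65.6 and 62.6 CPM, above all 10 of these, and TDP-43Q331K cortices had a lowest value of 39.1, a median of 54.2 and a highest of 60.3 CPM. The oligodendrocyte markers given above fell in the same cortices, and no read of Gpr37 was counted in any liver.

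The others called lower were the lysosomal membrane protein genes Lamp1 (-0.11 ± 0.02, adjusted p = 0.00286) and Scarb2 (-0.11 ± 0.03, adjusted p = 0.00805), the second of which encodes LIMP-2, the carrier of glucocerebrosidase. Sorcs1, a relative of Sort1 (-0.11 ± 0.03, adjusted p = 0.0350), and the endosomal sorting gene Chmp2b (-0.09 ± 0.03, adjusted p = 0.0369) were also lower. Those called higher were the membrane metalloprotease gene Mmp14 (0.64 ± 0.12, adjusted p = 0.00142), the TNF receptor gene Tnfrsf1a (0.44 ± 0.09, adjusted p = 0.00149), Ctsd (0.18 ± 0.04, adjusted p = 0.00508), the GM2 activator gene Gm2a (0.14 ± 0.04, adjusted p = 0.0105) and the ephrin receptor gene Epha2 (0.60 ± 0.16, adjusted p = 0.0154). In pairwise cortex comparisons, 1 of 42 was higher and 3 lower in TMEM106B-/- against WT, where 5.16% of all genes were called. In the combined genotype 4 were higher and 3 lower against WT (4.89% of all genes called, and 4 of the list without the cortices set apart), and 1 was higher and 0 lower against TDP-43Q331K (1.4% of all genes, and 0 of the list without the cortices set apart).

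The genes whose level across libraries was most like that of each of the 6 were found by Pearson's r of log2 CPM, as a description over 16 livers or 21 cortices that share genotype groups. For Sort1 in liver they were Mup20 (r = 0.90), Kitl (0.90) and Hsd3b5 (0.89), and with genotype means subtracted r was 0.64, 0.68 and 0.67. Hsd3b5, a male-typical liver steroid dehydrogenase gene in mouse, had 4.76, 11.2, 7.63 and 8.82 CPM in combined livers, against 249.9, 171, 191 and 174 CPM in WT livers. The combined livers form a group of their own in these plots, so the pooled r rests in part on them. Mup20, a major urinary protein gene, averaged 1678 ± 312 CPM in combined, 6486 ± 1500.0 in TMEM106B-/-, 7698 ± 986 in TDP-43Q331K and 9271 ± 830.4 in WT livers (SD, n = 4 each). It belongs to a family of related genes, and whether reads were shared with them was not checked. Kitl, which encodes the ligand of the KIT receptor, averaged 1.04 ± 0.107 CPM in combined, 1.92 ± 0.292 in TMEM106B-/-, 1.64 ± 0.268 in TDP-43Q331K and 2.005 ± 0.544 in WT livers (SD, n = 4 each).

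**Figure D5:**
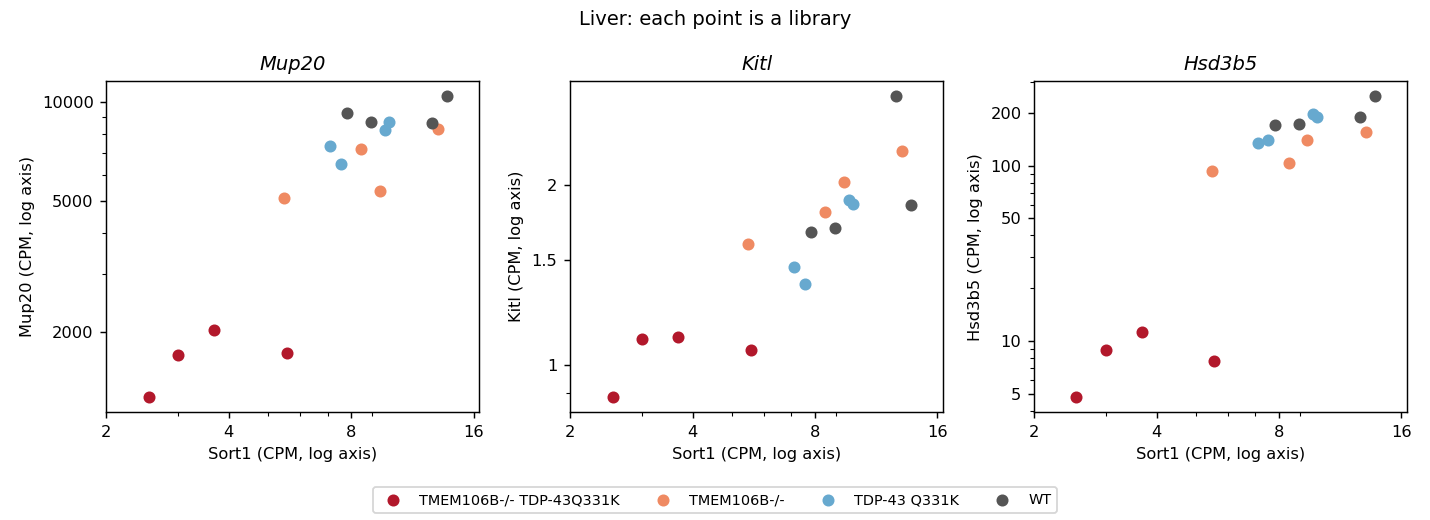
Sort1 (x axis) against Mup20, Kitl and Hsd3b5 (y axes) in the 16 livers, all in CPM on log axes, with each point a library coloured by genotype. The 4 combined livers lie at low values of both genes in each panel, apart from the other 12.

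For the other genes in liver, the likeness held within genotypes. Tmem106c was most like Lactb2 (r = 0.97, and 0.94 with genotype means subtracted), Tmem106b most like Dynlt3 (0.95 and 0.93) and Psap most like Srr (0.95 and 0.94). In cortex, Sort1 was most like Htr5a (0.92 and 0.90), Grn most like Capns1 (0.87 and 0.80) and Tmem106a most like Mustn1 (0.86 and 0.76). None of the 6 was among the 3 genes most like another. Among themselves, with genotype means subtracted, the pair with the highest r in liver was Tmem106b and Psap (r = 0.74, permutation p = 0.0392, adjusted p = 0.196 over the 15 pairs; rho = 0.58). Without the 2 livers farthest from the median of Tmem106b its r was 0.36. Tmem106b and Tmem106c (r = 0.54, permutation p = 0.0189) and Tmem106c and Psap (r = 0.53, permutation p = 0.0265) had the same adjusted p. Without the 2 livers farthest from the median of the first gene named, r was 0.41 and 0.58. No pair passed the adjusted test in either tissue, the lowest adjusted p in cortex being 0.695.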

How the data were processed

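Whole-number read counts per gene, not normalised, were deposited by the authors as 1 table for liver and 1 for cortex, with 55536 genes each. Trim Galore, cutadapt and FastQC and the builds GRCm38 and mm10 are named in the submitters' processing notes, and no source used here names the aligner, the counter or the strand setting. Columns were mapped to 37 samples by library name, and 1 column that names no sample was not used. Ensembl identifiers were named with GENCODE M21 (55450 of 55536 matched).

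Each tissue was fitted alone with edgeR 4.0.16 in R 4.3.3: low genes were dropped by filterByExpr (count of at least 10, total of at least 15), TMM factors were applied, and robust quasi-likelihood tests gave 8 contrasts of the 4 genotypes, two-sided, with Benjamini-Hochberg adjustment over all genes tested. A joint fit of both tables, with 1 spread per gene for both tissues, gave 3 contrasts between tissues. CPM and RPKM were computed from the deposited counts with TMM-scaled library sizes and exon length. Likeness used log2 CPM with a prior count of 2. Member pairs were tested by permuting libraries within genotype. Sort1 in liver and Tmem106a in cortex had the fewest reads of the 6 genes. Fits with DESeq2 1.42.0, limma-voom 3.58.1, RLE factors, no low count filter, the compared groups alone, the replicate number as a block, and each library left out served as alternatives, and the scripts were tested on simulated data. Leaving out the libraries set apart, and scaling by library totals, were chosen after seeing the data.

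The 6 genes and the lists of pathway and marker genes were chosen with earlier results of these data known. Genes named beyond the 6 were, per pathway list and comparison, up to 4 called genes by smallest p, the 3 genes most like each of the 6, and genes with overlapping exons. One marker gene of the cortex is not reported here.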

Additional observations from a re-analysis of the deposited data

Results flagged for a closer look

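Among 48 sets of a gene in a group, 3 held a library far from the others by Dixon's criterion, and chance gives this in about 1 of 20 groups. Sort1 had 751 CPM in TMEM106B-/- cortex replicate 5, with 678 CPM in the nearest of its group, and 605 CPM in WT cortex replicate 5, with 665 CPM in the nearest. Both lie on the side that widens the cortex difference of Sort1, and without the first its adjusted p was 0.0737 and without the second 0.0574 in edgeR's test. Psap had 427 CPM in combined liver replicate 3, with 374 CPM in the nearest of its group.

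Several effects differed between tissues. By a test of the difference itself in the joint edgeR fit, the TMEM106B loss effect in liver minus that in cortex was -0.82 for Sort1 and 0.36 for Tmem106b, and the Q331K effect in liver minus that in cortex was -0.83 for Sort1. Both Sort1 differences draw on the same combined livers, so they are not independent, and the fit gives both tissues 1 spread. Sort1 was lower in every combined liver and higher in every combined cortex than the mean of the group it was set against, both for the combined genotype against WT (log2 -1.55 in liver and 0.11 in cortex) and against TDP-43Q331K (-1.21 in liver and 0.14 in cortex). These pairwise differences between tissues were not tested.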

How the results depend on the processing

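Of 2478 values of the 6 genes under alternative settings, 2382 kept their direction and side of the threshold where called, 62 lost and 32 gained a call, and 2 reversed: for WT liver minus WT cortex with library totals only, Tmem106b stood at -0.97 and Tmem106c at -0.043. The 2382 include 77 values that changed sign but were called in neither setting. The number of the 6 genes called moved as follows, and the cause was not tested. For the combined genotype against TDP-43Q331K it was 2 in liver, 4 with limma-voom, 1 with the compared groups alone and 0 to 2 with single livers left out. In cortex it was 0, 2 with DESeq2, 3 with limma-voom, 1 without the libraries set apart and 0 to 2 with single cortices left out. For the combined genotype against TMEM106B-/- in liver it was 1, 0 with the compared groups alone, 0 without the libraries set apart and 0 to 1 with single livers left out. The liver average of TMEM106B loss gave 2, 1 with no low count filter and 0 to 2 with single livers left out, and the liver average of Q331K gave 0, 1 with DESeq2, 1 with limma-voom and 0 to 1 with single livers left out.

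Of the wider pathway list, the number called for the combined genotype against WT in liver was 1, 4 with DESeq2, 6 with limma-voom, 2 with the compared groups alone, 2 with the replicate block, 4 without the libraries set apart and 1 to 2 with single livers left out. In cortex it was 7, 4 with no low count filter, 3 with the compared groups alone, 3 with the replicate block, 4 without the libraries set apart and 1 to 8 with single cortices left out. Against TDP-43Q331K it was 4 in liver, 7 with limma-voom, 2 with no low count filter and 0 to 3 with single livers left out, and 1 in cortex, 2 with DESeq2, 3 with limma-voom, 0 with the replicate block, 0 without the libraries set apart and 0 to 2 with single cortices left out. For TMEM106B-/- against WT in cortex it was 4, 2 with no low count filter and 3 to 7 with single cortices left out. The liver average of TMEM106B loss gave 1, 4 with DESeq2, 6 with limma-voom, 3 without the libraries set apart and 1 to 2 with single livers left out. The liver interaction gave 0, 1 with limma-voom and 0 to 1 with single livers left out, and the combined genotype against TMEM106B-/- in liver gave 0 and 0 to 1 with single livers left out.

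Counts over all genes moved by more than 1.5 times mainly with the tool. DESeq2 and limma-voom called 1851 and 1960 genes beside 1176 for the combined genotype against WT in liver, 1610 and 1903 beside 1038 in cortex, 1317 and 1901 beside 658 against TDP-43Q331K in liver, 830 and 810 beside 298 in cortex, 536 and 392 beside 173 against TMEM106B-/- in liver, 620 and 330 beside 176 for TMEM106B-/- against WT in liver, 401 and 358 beside 44 for TDP-43Q331K against WT in liver, 1248 and 1462 beside 699 for the liver average of TMEM106B loss, 483 and 384 beside 91 for that of Q331K, and 600 and 339 beside 115 for the liver interaction. Fitting the compared groups alone gave 60 for TMEM106B-/- and 20 for TDP-43Q331K against WT in liver, 81 against TMEM106B-/- in liver and 104 against TDP-43Q331K in cortex for the combined genotype. Without the libraries set apart, 12 genes were called for TDP-43Q331K against WT in liver and 131 for the combined genotype against TDP-43Q331K in cortex (171 with no low count filter), and limma-voom called 1753 beside 1097 for TMEM106B-/- against WT in cortex. Between tissues, DESeq2 called 2176 beside 1445 genes for TMEM106B loss and 480 beside 146 for Q331K (288 with limma-voom, 82 with no low count filter, 70 with the replicate block). Library totals moved the share of called genes that were higher to 26.3%, against 41.5% with TMM, for WT liver minus WT cortex, and to 63.0%, against 45.9%, for the Q331K difference. In cortex, where 0 genes were called, leaving out the libraries set apart gave 2 for TDP-43Q331K against WT, 13 for the Q331K average and 2 for the interaction.

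The replicate block changed 1 call of the 6 genes within tissues, Sort1 in the cortex average of TMEM106B loss (adjusted p = 0.0503), and between tissues Tmem106b in WT (0.0515). Under the block, 980 genes were called for the combined genotype against WT in liver and 695 in cortex, 120 against TDP-43Q331K in cortex, and 13 for TDP-43Q331K against WT in liver. The numbers did not pair the libraries, since same-numbered libraries correlated at -0.21 to 0.28 in liver and -0.20 to 0.16 in cortex. Of 16 livers 6, and of 21 cortices 1, correlated best with a library of their own number. The fewest reads lay behind Tmem106a in cortex (28 to 105 a library) and Sort1 in combined livers (164 to 356).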
